A study of Rattus norvegicus with 2 samples.

Results

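Leukocyte and macrophage lineage genes were examined in cultured bone marrow-derived stromal cells of rats. The set was a named list of 41 genes, made of 15 macrophage genes, 8 genes shared by most leukocytes, 8 T cell genes, 4 genes of natural killer and cytotoxic cells, 2 B cell genes, 1 granulocyte gene and 3 mast cell genes. Of these, 39 had a probe whose RefSeq accession matched the current rat symbol, out of 15168 genes named in this way, and Ms4a1 and Mpo had no matched probe. The control array held total RNA of cells from wild type Sprague-Dawley rats. The transgenic array held total RNA of cells from rats of Sprague-Dawley origin that carry both the human angiotensinogen gene and the human renin gene. Wells of a 6-well plate received 150000 cells each and were kept until subconfluent, and no sort for or against blood cells is stated. Each group had 1 array. The promoters that drive the transgenes, the age of the rats, the passage of the cells and the number of animals behind each array are not given in the sources used here, so the spread from rat to rat or culture to culture is unknown, no test was made and every value describes these 2 arrays.

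Bone marrow holds all blood lineages beside the stroma, and macrophages are the blood cells best known to persist in adherent marrow cultures, because they attach to plastic and can survive on CSF1, a growth factor that stromal cells secrete. Macrophages sense their surroundings through receptors that lack signalling domains of their own and pair with the small adaptors TYROBP (also called DAP12) and FcR gamma, the product of Fcer1g. These adaptors carry an ITAM, a tyrosine motif that recruits the kinase SYK. The macrophage program is driven by the transcription factor PU.1, the product of Spi1. CD45, the product of Ptprc, is a phosphatase on nearly all nucleated blood cells.

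Signals are processed intensities in arbitrary linear units. A difference is the log2 signal of the transgenic array minus that of the control array, after each array's 75th percentile (905 units in control, 1080 in transgenic) was set to the same level. Its error is the scanner software's own estimate for the spots, had a median of 0.20 log2 over probes well above background on both arrays, and holds no biological spread. A gene was taken as above background when over 50% of the spots of its probe were flagged so, and differences were called by size alone, at 2-fold. The lowest signal well above background was 15.3 units in control and 15.9 in transgenic, and negative control spots had medians of 3.74 and 3.88 units. No spot was saturated. Of 11 listed stromal markers, 10 were above background in control and 11 in transgenic, against 64.6% and 65.2% of all named genes. Their unscaled signals summed to 511857 and 335227 units. Bright collagen probes such as Col1a2 (194668 and 109843 units) weigh most in these sums. Of the 10 markers on both arrays, 2 were at least 2-fold higher and 2 lower.

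Detection differed by lineage. Of the 39 members with a probe, 21 (53.8%) were above background in control and 19 (48.7%) in transgenic, against 64.6% and 65.2% of all named genes. The macrophage members had 11 of 15 above background in control and 10 of 15 in transgenic. Of the 8 pan-leukocyte members, 6 were above background on each array. The remaining members, of lymphocytes and mast cells, had 4 of 16 above background in control and 3 of 16 in transgenic, so most of the silent probes belonged to these lineages. In all, 18 members (against 62% of all named genes) were above background in both, 3 in control only (Trem2, Cd3g and Hdc), 1 in transgenic only (Nkg7) and 17 on neither. For all named genes the share on neither array was 32.1%, and the shares in control only and transgenic only were 2.64% and 3.29%.

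**Figure D1:**
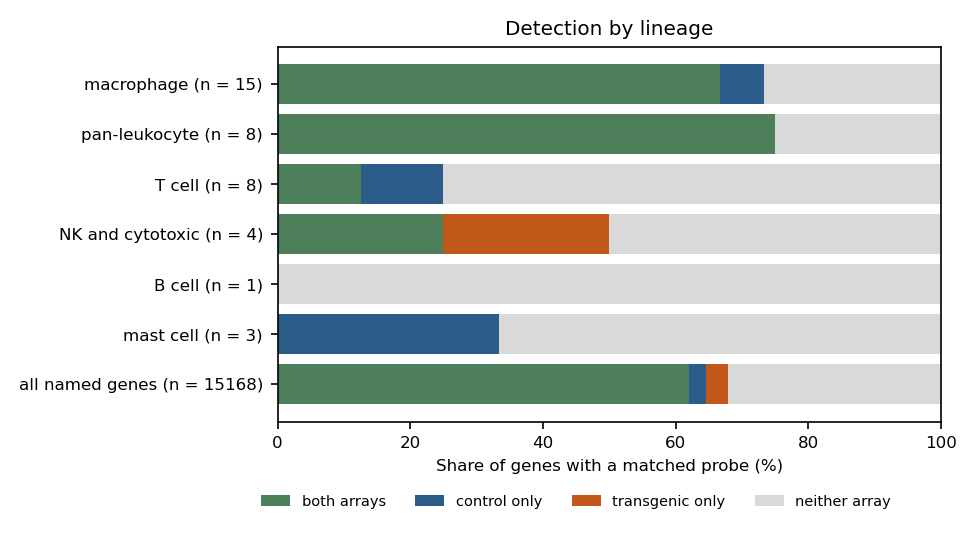
Share of genes with a matched probe (x axis, %) that were above background on both arrays, on 1 array or on neither, by lineage, with all 15168 named genes below. The macrophage and pan-leukocyte bars are mostly filled, and the T cell bar is empty for 6 of 8 genes.

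The 18 members detected in both cultures lay on both sides of the control level. In transgenic 7 of them (38.9%) were lower by 2-fold or more, against 11.1% of the 9397 genes so detected, and 7 (38.9%) were higher by 2-fold or more, against 10.5%. One of the higher members, Fcgr2b, has probes that oppose each other, and averaging the probes of each gene gave 8 lower and 6 higher members. All 7 lower members were at least 4-fold lower (2.85% of all genes), and 3 of the 7 higher members were at least 4-fold higher (3.28%). These 4-fold counts depend on the setting. In the authors' deposited table the lower members Aif1, Coro1a and Lcp1 and the higher member Cd53 came inside 4-fold. Under spike-in scaling Laptm5, Coro1a, Aif1 and Lcp1 came inside 4-fold, and all 7 higher members were past it. The median over the 18 members was -0.57 log2, beside -0.09 log2 over all 9397 genes, and it falls among the 4 members within 2-fold. In RNA from a whole culture, fewer cells of a type and less RNA per cell cannot be told apart. When E1A spike-in probes set the scale instead, the median of all genes moved up by 1.12 log2 and the higher genes made up 95.2% of those past 2-fold in place of 48.7%. Under that scaling the same 7 members remained lower by 2-fold or more, against 2.58% of all genes. The higher members numbered 8 of the 18, with Cd3d added, a share no greater than the 51.4% of all genes.

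**Figure D2:**
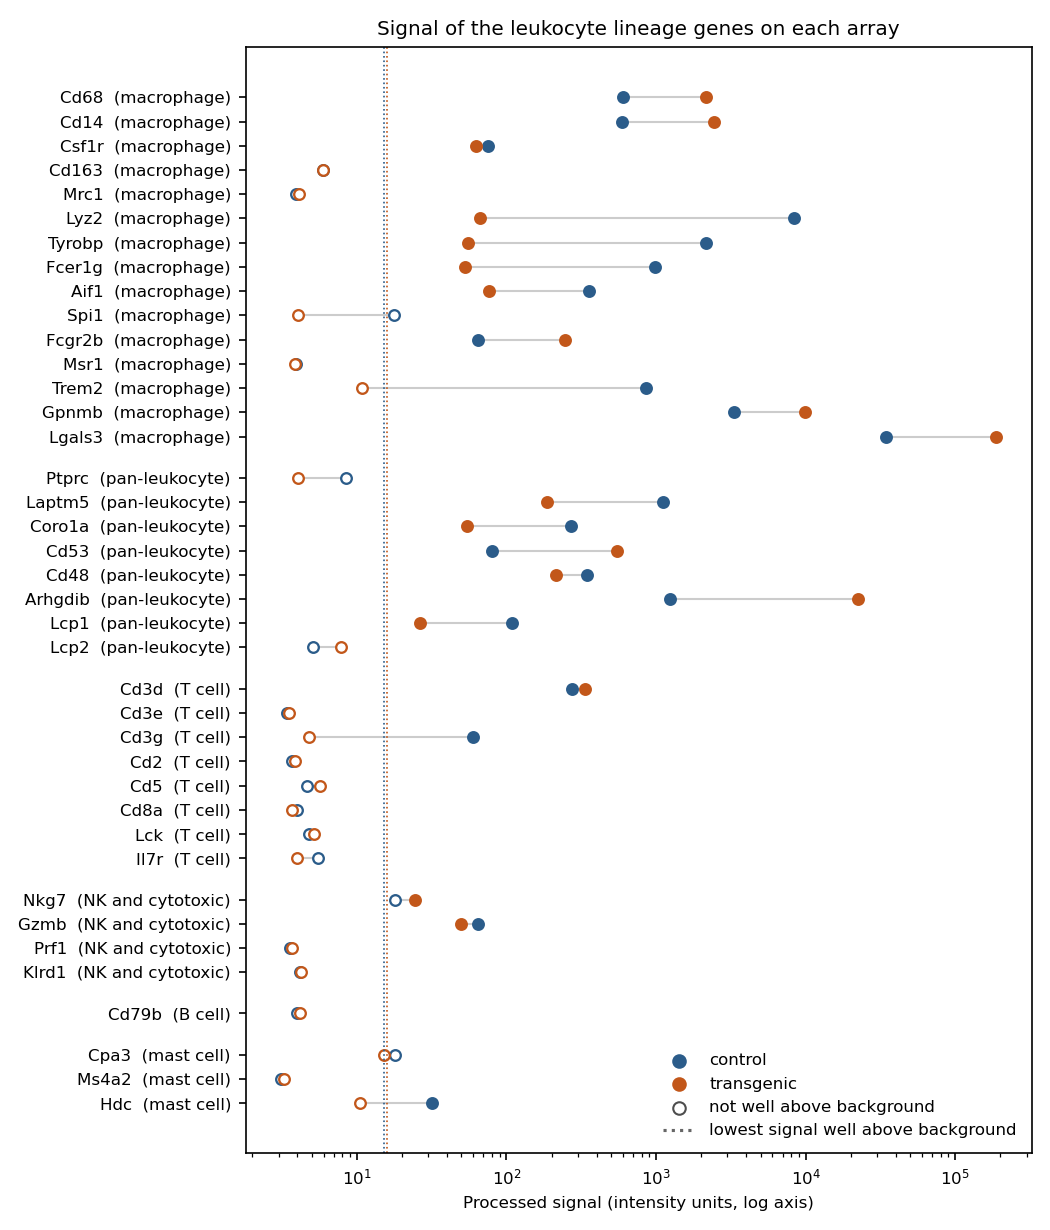
Processed signal (x axis, intensity units, log axis) of the 39 members with a probe on the control and the transgenic array, by lineage. Open circles were not well above background, and the dotted lines mark the lowest signal well above background. Lyz2 fell from 8372 to 66.3 units between control and transgenic, and Arhgdib went from 1241 to 22271.

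The ITAM adaptors and their partner TREM2 were lower in the transgenic array. Tyrobp, which encodes the adaptor DAP12, gave 2141 units in control and 55.4 in transgenic, a 46.1-fold difference (-5.53 ± 0.23 log2, scanner error). Fcer1g, which encodes the gamma chain shared by Fc receptors, gave 985 and 52.8 units, a 22.3-fold difference (-4.48 ± 0.23 log2). Both adaptors remained above background on the transgenic array, at signals far closer to the detection limit than in control. A second probe of Fcer1g gave 647 and 31.1 units (-4.63 log2). Trem2, a lipid receptor of macrophages, microglia and osteoclasts that signals through DAP12, gave 854 units in control and 10.9 in transgenic, where it was not well above background. It was therefore at least 63.9-fold lower, from a probe with 1 spot per array. Among all 9397 genes ranked from the lowest difference, Tyrobp was at rank 17 and Fcer1g at rank 31. The sizes depended on the setting: in the authors' deposited table Tyrobp came to -4.25, Fcer1g to -3.25 and Trem2 to -3.98 log2.

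Fcgr2b, the inhibitory Fc receptor, which carries its own inhibitory motif and needs no adaptor, gave opposite answers on its probes. The probe with the higher mean signal, which has 1 spot, gave 64.2 units in control and 247 in transgenic, a 3.22-fold higher level (1.69 ± 0.22 log2, and 1.04 with normexp background correction). The other probe, with 10 spots, gave 67.7 units in control, where all 10 spots were above background, and 4.41 in transgenic, where 1 spot was, and that spot was an outlier. By that probe the gene was at least 5.07-fold lower. Its direction was thus not settled here. Csf1r, the receptor for CSF1 on which most macrophages depend, also differed between probes. One probe gave 74.8 and 62.8 units in control and transgenic (-0.51 ± 0.24 log2) and the other 45.5 and 83.1 (0.61 log2), so neither reached 2-fold and they opposed each other in sign. Aif1 and Gzmb, also measured by 2 probes, kept 1 sign on both.

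**Figure D3:**
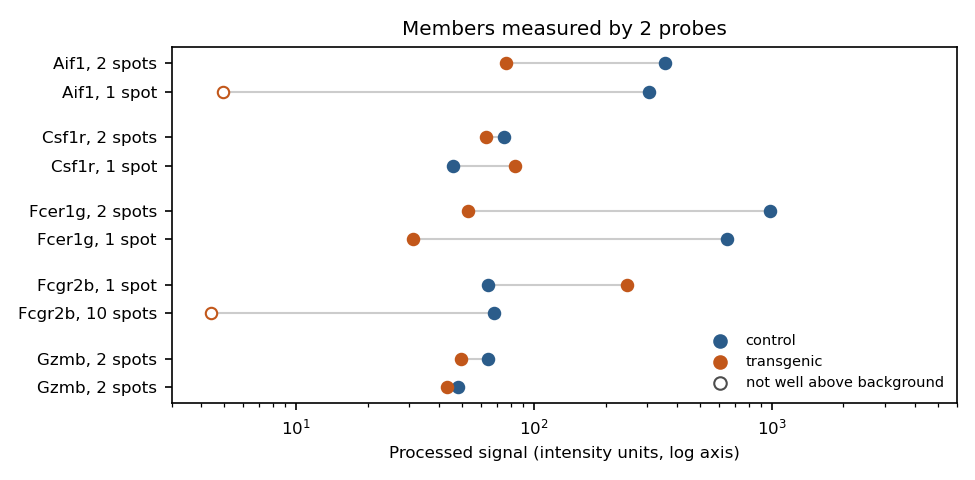
Processed signal (x axis, intensity units, log axis) on the control and the transgenic array for each probe of the 5 detected members with 2 probes, labelled with the number of spots per array. Open circles were not well above background. The probes of Fcgr2b and of Csf1r point in opposite directions, and those of Aif1, Fcer1g and Gzmb in the same direction.

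The remaining lower members are enzymes, membrane proteins and cytoskeletal proteins of blood cells. Lyz2, the lysozyme secreted by macrophages and neutrophils, gave 8372 units in control and 66.3 in transgenic, and with 151-fold (-7.23 ± 0.22 log2) was the member with the largest difference and at rank 8 of 9397 from the lowest. Its 2 control spots lay at 8278 and 8468 units and its 2 transgenic spots at 56.3 and 78.1, so the spots of the arrays were far apart. It came to -6.11 log2 in the authors' deposited table and -6.15 with normexp background correction, each over 1.5 times smaller as a fold. Laptm5, a lysosomal membrane protein of blood cells that lowers receptor signalling, gave 1110.0 and 187 units, a 7.07-fold lower level (-2.82 ± 0.21 log2). Coro1a, the coronin that binds actin in leukocytes, gave 269 and 54.5 units and was 5.90-fold lower (-2.56 ± 0.22 log2). Aif1, the calcium-binding protein IBA1 of macrophages and microglia, gave 356 and 76.0 units and was 5.59-fold lower (-2.48 ± 0.22 log2). On its other probe, which has 1 spot, Aif1 gave 303 and 4.94 units, at least 22.7-fold lower. Lcp1, the actin bundler L-plastin, gave 109 and 26.3 units and was 4.95-fold lower (-2.31 ± 0.31 log2). In the authors' deposited table of processed values Coro1a came to -1.73, Aif1 to -1.78 and Lcp1 to -0.99 log2, which took Lcp1 just inside 2-fold.

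A second set of members was higher in the transgenic array. Arhgdib, a GDP-dissociation inhibitor of small GTPases that is abundant in blood cells, gave 1241 units in control and 22271 in transgenic, a 15.0-fold difference (3.91 ± 0.20 log2) and rank 73 of 9397 from the highest. Cd53, a tetraspanin of leukocytes, gave 80.2 and 544 units and was 5.69-fold higher (2.51 ± 0.22 log2), and 1.78 log2 higher in the authors' deposited table. Lgals3, galectin-3, a carbohydrate-binding protein made by macrophages and also by fibroblasts and epithelia, gave 34292 and 187827 units and was 4.59-fold higher (2.20 ± 0.20 log2). Cd14, the co-receptor for bacterial lipopolysaccharide, gave 590.3 and 2426 units and was 3.44-fold higher (1.78 ± 0.20 log2). Cd68, a lysosomal glycoprotein much used as a macrophage stain though not exclusive to that lineage, gave 602 and 2152 units and was 2.995-fold higher (1.58 ± 0.20 log2). Gpnmb, a glycoprotein of lysosomes and melanosomes found in macrophages, osteoclasts and osteoblasts, gave 3337 and 9847 units and was 2.47-fold higher (1.31 ± 0.20 log2). These 6 genes were above background on both arrays in every spot.

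**Figure D4:**
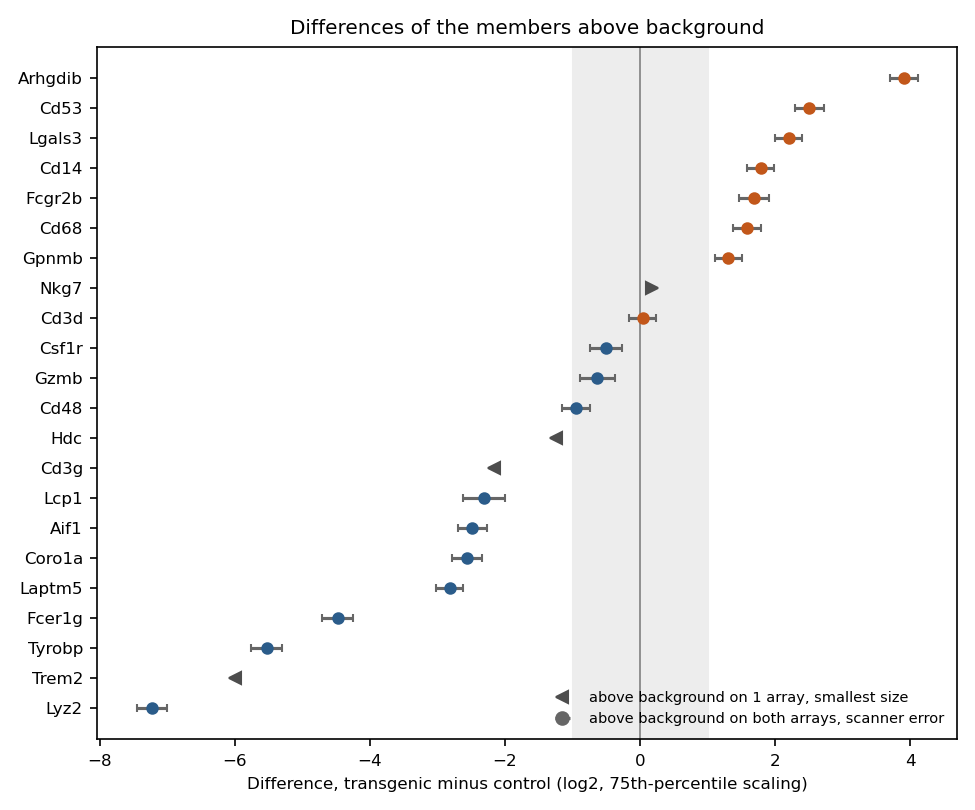
Difference, transgenic minus control (x axis, log2), of the 22 members above background on at least 1 array. Circles are members above background on both arrays with the scanner error as bars, triangles are the smallest size of members above background on 1 array only, and the shaded band marks 2-fold. Lyz2 stands at -7.23, Arhgdib at 3.91, and 7 circles lie past 2-fold on each side.

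Among the macrophage and pan-leukocyte members, 6 of 23 were above background on neither array. Ptprc, which encodes CD45, gave 8.45 units in control and 4.01 in transgenic on a probe with 10 spots, of which 0 were above background in control and 1, an outlier spot, in transgenic, and its second probe gave 3.48 and 3.61 units. Spi1, which encodes PU.1, gave 17.7 and 4.04 units and was not well above background on either array, although its control signal was above the lowest signal flagged as detected on other probes. The scavenger receptors Cd163 and Msr1 and the mannose receptor Mrc1 gave from 3.87 to 5.97 units on either array, near the negative controls. Lcp2, the adaptor SLP-76 of T cells and other blood cells, gave 5.10 and 7.89 units. Cd48, a surface ligand of the natural killer receptor 2B4, was the remaining pan-leukocyte member, with 347 units in control and 214.5 in transgenic (-0.95 ± 0.21 log2), just inside 2-fold. A probe that gives no signal can also be a probe that binds poorly, which was not tested.

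Lymphocyte members gave little signal. Of the 8 T cell members, Cd3e, Cd2, Cd5, Cd8a, Lck and Il7r, which encode a chain of the T cell receptor complex, adhesion and co-receptor molecules, the T cell kinase and the interleukin-7 receptor, lay at 5.64 units or lower on either array. Cd3d, the delta chain of the CD3 complex, was above background in all 10 spots of each array, with 274 units in control and 335 in transgenic, and differed by 0.04 ± 0.21 log2, well within the scanner error. Under spike-in scaling it came to 1.15 log2. Cd3g, the gamma chain, gave 60.2 units in control and 4.76 in transgenic, where none of its 10 spots was above background, so it was at least 4.50-fold lower. Cd3g came to -0.98 log2 in the authors' deposited table. The chains of CD3 thus showed 3 different states on these arrays: Cd3d on both, Cd3g in control only and Cd3e on neither.

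Among the cytotoxic members, Gzmb, the granule protease granzyme B, gave 64.2 and 49.4 units (-0.63 ± 0.25 log2), and its second probe gave 48.2 and 43.3 units (-0.41 log2). Nkg7, a granule membrane protein, gave 18.1 units in control and 24.3 in transgenic. It was above background in transgenic only, but its control signal was close to that level and the ratio was 1.13-fold. Perforin (Prf1) and the receptor chain Klrd1 were at 3.55 to 4.26 units. Cd79b, the signalling chain of the B cell receptor, was at 4.01 and 4.17 units. Of the mast cell members, Ms4a2, the beta chain of the high-affinity IgE receptor, was at 3.13 and 3.26 units, and Cpa3, carboxypeptidase A3, was above background in 1 of 2 spots on each array, which did not pass the rule. Hdc, which makes histamine, gave 31.6 units in control and 10.4 in transgenic, 2.37-fold lower when taken to the lowest signal well above background. With 1 of 2 transgenic spots above background, that is no firm bound. Spike-in scaling took Hdc to -0.13 log2 and the authors' deposited table to -0.26.

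Promoter sequence was available for 26 of the members, from RefSeq on GRCr8, the current rat assembly. The 250 bases before the annotated start were searched on both strands for GAGGAA, the PU box to which PU.1 and related ETS factors bind, for the AP-1 site TGAGTCA and for the E-box CACGTG; none of the matches in the members overlapped another. GAGGAA was found in 16 of the 26 members, and in 23.3% of 33469 promoters of the same length. Among members with sequence, 2 of the 3 lower ones (Laptm5 and Lyz2, not Coro1a), all 4 higher ones (Cd14, Cd53, Cd68 and Gpnmb) and 7 of the 11 above background on neither array held it. It was also in 2 of the 3 members in control only (Hdc and Trem2) and in 1 of the other 5 (Csf1r). No difference between these groups was tested. TGAGTCA was found in 3 members (Cd68, Gpnmb and Gzmb) and in 4.05% of all promoters, and CACGTG in 0 members and 5.59% of all promoters. A match is a description of these letters and not a bound site. The lower members Lyz2 and Laptm5, Trem2, which was above background in control only, and the higher members Cd53, Cd68 and Gpnmb are shown so that the position of the motif, in capitals on whichever strand it was read, can be compared.
Lyz2 (chr7:54798012-54798261, minus strand): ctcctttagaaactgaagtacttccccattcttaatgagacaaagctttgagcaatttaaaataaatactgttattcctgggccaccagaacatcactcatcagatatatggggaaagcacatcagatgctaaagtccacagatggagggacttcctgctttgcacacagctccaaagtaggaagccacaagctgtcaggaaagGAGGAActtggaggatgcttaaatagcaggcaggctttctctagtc
Laptm5 (chr5:148371630-148371879, plus strand): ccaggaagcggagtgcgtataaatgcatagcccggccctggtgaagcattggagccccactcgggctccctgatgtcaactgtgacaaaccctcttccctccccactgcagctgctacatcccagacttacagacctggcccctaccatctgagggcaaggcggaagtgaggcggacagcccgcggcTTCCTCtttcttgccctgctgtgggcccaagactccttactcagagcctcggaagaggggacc
Trem2 (chr9:20151780-20152029, minus strand): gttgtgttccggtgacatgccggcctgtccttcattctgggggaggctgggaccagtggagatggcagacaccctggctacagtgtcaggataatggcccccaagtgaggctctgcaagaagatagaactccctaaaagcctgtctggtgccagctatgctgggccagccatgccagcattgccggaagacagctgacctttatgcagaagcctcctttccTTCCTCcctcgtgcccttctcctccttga
Cd53 (chr2:197087897-197088146, minus strand): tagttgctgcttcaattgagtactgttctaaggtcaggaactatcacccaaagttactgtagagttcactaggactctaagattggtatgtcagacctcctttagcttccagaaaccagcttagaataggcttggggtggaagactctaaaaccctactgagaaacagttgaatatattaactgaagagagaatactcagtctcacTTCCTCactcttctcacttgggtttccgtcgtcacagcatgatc
Cd68 (chr10:54882442-54882691, minus strand): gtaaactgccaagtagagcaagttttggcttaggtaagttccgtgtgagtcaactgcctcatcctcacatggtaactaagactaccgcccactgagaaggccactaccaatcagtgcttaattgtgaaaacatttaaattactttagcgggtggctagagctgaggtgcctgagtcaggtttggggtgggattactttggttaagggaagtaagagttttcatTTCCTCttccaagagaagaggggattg
Gpnmb (chr4:79340878-79341127, plus strand): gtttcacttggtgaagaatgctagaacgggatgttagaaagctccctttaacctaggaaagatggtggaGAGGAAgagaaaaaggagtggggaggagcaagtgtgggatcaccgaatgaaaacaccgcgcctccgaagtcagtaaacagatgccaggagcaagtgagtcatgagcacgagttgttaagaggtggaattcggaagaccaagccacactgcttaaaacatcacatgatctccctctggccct
The motif begins 46 bases before the start in Lyz2, 63 in Laptm5, 29 in Trem2, 44 in Cd53 and 27 in Cd68. In Gpnmb it begins 181 bases before the start, the most distant of these 6 genes. Not shown are the higher member Cd14, where it begins 140 and 105 bases before the start, and Hdc, where it begins 168 bases before.

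Receptors and signalling genes that work with the adaptors were mostly silent. Of 21 matched genes of ITAM adaptors, kinases and inhibitory receptors, 8 were above background in control and 9 in transgenic, against 64.6% and 65.2% of all named genes. Of the 7 above background on both arrays, 2 were at least 2-fold lower and 0 higher (median -0.09 log2), against 11.1% and 10.5% of all genes. Spike-in scaling left 1 lower and put 5 higher, against 2.58% and 51.4% of all genes under that scaling. Among them Hcst, the adaptor DAP10 that partners the receptor NKG2D, gave 274 and 135 units and was 2.43-fold lower, but came to -0.16 log2 under spike-in scaling. Sirpa, the receptor for the signal CD47, differed by 0.68 log2 and the kinase Fyn by 0.29 log2. Syk, the kinase that ITAMs recruit, which was chosen after its values were seen, differed by -0.09 ± 0.32 log2 at 31.0 and 34.6 units. On 1 array only were Siglec1, a sialic acid receptor of resident macrophages (control only, at least 4.86-fold lower), the kinase Fgr (transgenic only, at least 7.29-fold higher) and the inhibitory receptor Lilrb4 (transgenic only, at least 2.38-fold higher). In the authors' deposited table Siglec1 came to -0.93, Fgr to 1.28 and Lilrb4 to 0.50 log2, so Siglec1 and Lilrb4 fell inside 2-fold. Tyrobp and Fcer1g were thus far lower in transgenic, while most genes of this list were within 2-fold or under detection.

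Fc receptors and C1q, the recognition subunit of complement made largely by macrophages, formed a list of 7 matched genes. All 7 were above background in control and 4 in transgenic, against 64.6% and 65.2% of all named genes. In control only were 3 (42.9%, against 2.64% of all named genes), namely C1qa, C1qc and Fcgr3a. C1qa gave 1328 and 4.89 units and was at least 99.4-fold lower, C1qc gave 164 and 3.86 units and was at least 12.3-fold lower, and C1qb gave 2329 and 466 units and was 5.96-fold lower. All 3 chains of C1q were thus lower, by different amounts. In the authors' deposited table the differences were -4.61 log2 for C1qa and -1.82 log2 for C1qc, smaller than these bounds by over 1.5 times. Among the Fc receptor genes, Fcgr2a differed by 0.38 log2 and the neonatal receptor Fcgrt by 0.07 log2. Fcgr1a was not settled: its brighter probe, with 1 spot near the detection limit, gave 24.1 and 22.7 units (-0.34 log2), its other probe was above background in control only, and the mean over probes was -2.39 log2. Fcgr3a, in control only by the flag, gave 27.9 and 31.8 units. Its 2 transgenic spots were far apart (standard deviation 4.41 log2) and 50% were above background, so its level there was not settled.

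A further list held 34 matched macrophage and monocyte genes beyond the members. Of these, 16 were above background in control and 12 in transgenic, with 6 in control only (17.6%, against 2.64% of all named genes) and 2 in transgenic only. The genes in control only were Ctss, Lst1, Adgre1, Alox5ap, Itgb2 and Hcls1. Ctss, the lysosomal protease cathepsin S, gave 163 and 11.3 units, 12.2-fold lower when taken to the lowest signal well above background. That is no firm bound, since its 2 transgenic spots were far apart (standard deviation 2.03 log2) and 50% were above background. Lst1 gave 81.2 and 3.32 units (at least 6.08-fold lower). Adgre1, which encodes the macrophage antigen F4/80, gave 36.0 and 15.3 units (at least 2.69-fold lower). Alox5ap, needed for leukotriene synthesis, gave 34.9 and 3.49 units (at least 2.61-fold lower). The beta-2 integrin Itgb2 gave 20.1 and 4.14 units and Hcls1 17.7 and 15.1 units. The bounds of Itgb2 and Hcls1 turned positive under spike-in scaling, at 0.53 and 0.71 log2, and Adgre1 and Alox5ap came to -0.31 and -0.27 log2, inside 2-fold. In the authors' deposited table Ctss came to -1.61, Lst1 to -1.27, Adgre1 to -0.37 and Alox5ap to -0.63 log2. In transgenic only were the metal transporter Slc11a1 (17.1 and 93.6 units) and the chitinase-like Chi3l1 (9.50 and 45.9 units), which came to 0.94 and 0.44 log2 in the authors' deposited table. Each had 50% of its control spots above background, so neither state is firm. The control spots of Chi3l1 were also far apart (standard deviation 2.04 log2). Of 10 genes on both arrays, 3 were at least 2-fold lower, namely Cd74 (4.98-fold), the elastase Mmp12 (4.84-fold, -1.23 log2 in the authors' deposited table) and the oxidase subunit Ncf4 (3.34-fold, -0.62 log2 under spike-in scaling and -0.59 in the authors' deposited table), and 1 was higher, Pla2g7, a secreted phospholipase that inactivates platelet-activating factor (197 and 17059 units, 72.6-fold). The shares over all genes were 11.1% lower and 10.5% higher, with 64.6% and 65.2% above background. The median of the 10 genes was -0.76 log2.

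Growth factors and transcription factors of the myeloid lineage were measured beside these genes. Csf1, which stromal cells make, gave 6199 and 17353 units and was 2.35-fold higher in transgenic, whereas Il34, the second ligand of the CSF1 receptor, gave 10820 and 299 units and was 43.2-fold lower (-5.43 log2). The 2 ligands of Csf1r thus differed in opposite directions, while the receptor's own probes did not reach 2-fold. Csf3, the granulocyte growth factor, was 9.13 log2 higher, and the receptor chain Csf2ra differed by -0.53 log2. Of 20 matched haematopoietic transcription factors, 12 were above background on each array, against 64.6% and 65.2% of all named genes. Of 11 on both arrays, 1 was at least 2-fold lower, Cebpa (222 and 38.8 units, 6.81-fold), and 1 higher, Cebpb (20824 and 87106 units, 3.51-fold), shares no greater than the 11.1% and 10.5% of all genes. Cebpa came to -1.47 log2 in the authors' deposited table. Its 2 control spots were far apart (standard deviation 1.48 log2), so the size of its difference is uncertain. Gata2 and Pax5 differed by -0.99 and -0.92 log2. Gata3 was above background in control only (61.0 and 16.5 units, 4.42-fold), a difference of -0.64 log2 in the authors' deposited table. With 50% of its transgenic spots above background, that state is not firm. The 20 matched phagosome and lysosome genes were all above background in control and 19 in transgenic, with 0 of 19 on both arrays past 2-fold and a median of 0.41 log2. Under spike-in scaling 16 of the 19 were at least 2-fold higher, against 51.4% of all genes. Among them were Mcoln1 (0.85 log2), Npc2 (0.82) and Grn (0.76), and Cd36 was in control only (at least 1.85-fold lower, a bound that turned to 0.23 log2 under spike-in scaling). Under spike-in scaling the median of all genes rose by 1.12 log2, so these small differences are relative to the bulk of genes.

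**Figure D5:**
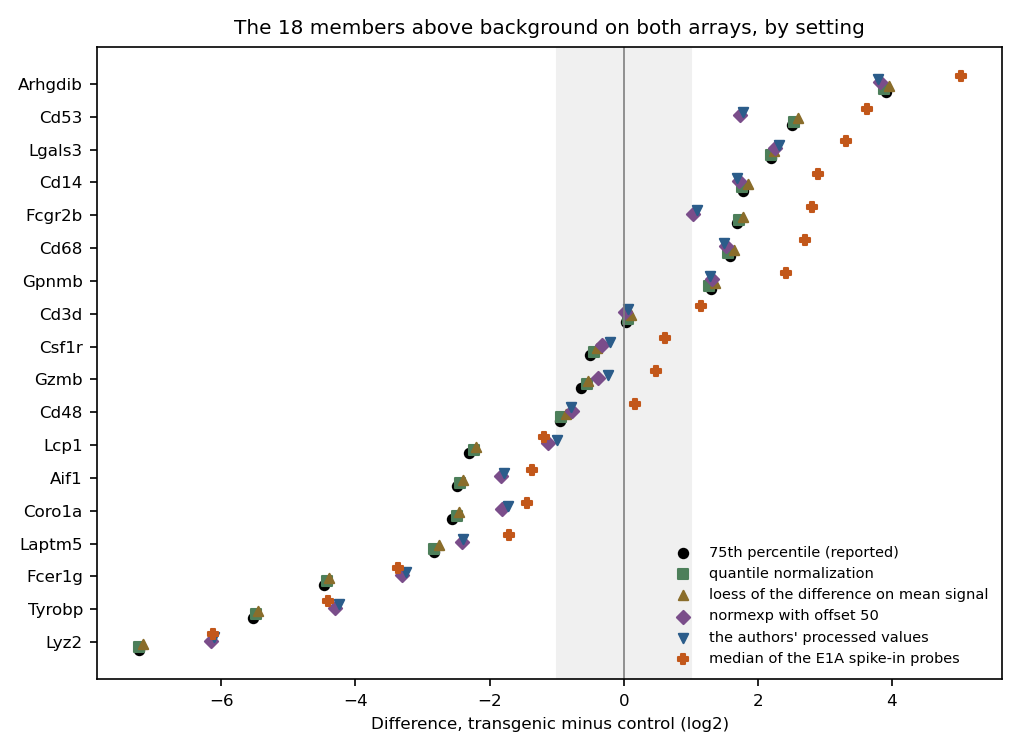
Difference, transgenic minus control (x axis, log2), of the 18 members detected in both cultures under 6 of the settings, with the band marking 2-fold. Spike-in scaling lies to the right of the reported value by 1.12 log2 for each gene, and the 7 lower members stay below 0 and the 7 higher members above 0 in the 6 settings drawn. The mean over probes, not drawn, turned Fcgr2b to -1.25 log2.

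Markers of other cell types that marrow can hold were measured beside these genes. Of all named genes, 64.6% were above background in control and 65.2% in transgenic, so a count of 2 of 3 is near that share. Megakaryocyte and platelet markers were above background for 2 of 3 matched genes on each array, and their signals summed to 1539 units in control and 144 in transgenic. That sum was carried by Pf4, platelet factor 4, with 1505 and 98.3 units (18.3-fold lower, -3.35 log2 in the authors' deposited table), and Gp9 differed by 0.21 log2. Erythroid markers were above background for 2 of 3 matched genes on each array and summed to 475 and 9642 units, carried by Ahsp, the globin chaperone, with 444 and 9597 units (18.1-fold higher). Endothelial markers were above background for 1 of 5 on each array, Cdh5 with 214 and 171 units, and summed to 234 and 194. Among stromal markers, Eng was 5.22-fold and Pdgfra 3.30-fold higher. Col3a1 was 5.71-fold and Col1a2 2.11-fold lower (Col1a2 at 0.037 log2 under spike-in scaling). Vcam1 was in transgenic only (0.97 log2 in the authors' deposited table), with 50% of its control spots above background. The part of these cell types in the differences of the members was not tested.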

How the data were processed

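Total RNA of 1 control and 1 transgenic culture was hybridised with Cy3 to 1-colour Agilent rat arrays. Per the file headers, the authors' scanner files hold spot intensity on a linear scale, the processed signal of Agilent Feature Extraction 11.0.1.1, which is not scaled between arrays, and flags (0 or 1) for outliers, saturation and background. The authors also deposited a log2 table of 23153 probes (column medians 7.20 and 7.18), whose normalization and centring are not given in the sources used here. Where both arrays were above background, its differences followed those computed here with r = 0.978 across probes and a slope of 0.815, in the same direction.

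Outlier spots were left out, log2 signals averaged per probe over 30367 probes, and each array's 75th percentile subtracted. Accessions were matched without versions to RefSeq symbols (GRCr8), giving 1 symbol to 18005 probes. Each gene was read from its brightest probe. Where 1 array was below background, the fold was taken to the lowest signal well above background, or to the dim probe's own signal if that was higher, and a probe's levels are not set against another's. All members with a probe were named, and, of each further list, up to 4 genes by size and those on 1 array only. Syk was named outside this rule, and some genes that the rule names are not reported here. The members, lists and alternatives were chosen with earlier results of these data known. The steps were tested on simulated data. Alternatives used limma 3.58.1 for normexp with an offset of 50, on median pixel signals in place of the mean signal.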

Additional observations from a re-analysis of the deposited data

How the results depend on the processing

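With 1 array per group, all limits here are of measurement and choice of setting. In all, 12 alternatives were run. Of the 17 members at or past 2-fold or at a bound of that size, 16 kept their sign in all alternatives that gave them a value. The exception was Fcgr2b, which came to -1.25 log2 with the mean over its probes. Not every alternative could change a sign. For called members on both arrays, the other detection rules, the lack of a filter and keeping outlier spots gave the same values. Averaging probes could alter only the 7 members with several probes. Among 42 genes of the other lists past 2-fold, the exception was Col1a2, at 0.037 log2 with spike-in scaling. The median over members on both arrays, -0.57 log2, came to 0.55 with spike-in scaling, -0.349 with normexp, -0.225 with the authors' processed values and -0.26 without a filter on dim probes. The median over macrophage members, 0.40 log2, came to 1.52 with spike-in scaling, -0.60 with the mean over probes, -0.51 with the looser detection flag and -0.26 without a filter. The signs of these medians therefore depend on the setting. Without a filter 12 members were at least 2-fold lower, and at 4-fold 3 were higher. Of those 17 members, 11 moved by over 1.5 times with normexp and 11 with the authors' values, 1 and 3 of the 17 falling inside 2-fold, and of the 42 other genes 23 and 24 moved so far, 11 and 15 falling inside 2-fold. The authors' table has no detection flags and gave no counts of them. No paired analysis was possible because each group had 1 array.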

Other observations

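Lymphoid, granulocyte and mast cell genes outside the members were measured as further lists, named by the same rule. Over all named genes, 64.6% were above background in control and 65.2% in transgenic. Of 25 matched T and natural killer cell genes, 8 were above background on each array, and of 7 on both arrays 0 were past 2-fold (median -0.03 log2). Cd7 differed by 0.93 log2, the chemokine Ccl5 by 0.64, Gzmk by -0.44 and Klrk1, which encodes NKG2D, by -0.30. Icos, a T cell co-stimulator, was in control only (49.9 and 3.85 units, at least 3.74-fold lower), and Xcl1 in transgenic only (15.8 and 46.4 units). These came to -0.84 and 0.36 log2 in the authors' deposited table. Of 9 matched B cell genes, 1 was above background in control and 2 in transgenic, with Fcrla on both (0.20 log2) and the enzyme Cd38 in transgenic only (24.8 and 121 units, 0.97 log2 in the authors' deposited table). Of 16 matched granulocyte genes, 2 were above background in control and 3 in transgenic. These were Prg2 (-0.72 log2), the antimicrobial peptide gene Camp (49.8 and 2441 units, 41.1-fold higher, 4.27 log2 in the authors' deposited table) and, in transgenic only, Lcn2 (8.24 and 219059 units). The other 13 granulocyte genes were above background on neither array. Xcl1, Cd38 and Lcn2 each had 50% of their control spots above background, so their state on that array was not firm. Of 11 matched mast cell and basophil genes, 3 were above background on each array, and Il1rl1, the interleukin-33 receptor, gave 45470.3 and 3384 units (16.0-fold lower). Its second probe was above background in control only.

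Families of single members were set beside them. For comparison, 62% of all named genes were above background on both arrays. Of those, 10.5% were at least 2-fold higher and 11.1% at least 2-fold lower. Of 8 galectin genes other than Lgals3, 6 were above background on both arrays, with Lgals9 (5.03-fold) and Lgals5 (4.80-fold) higher, 0 past 2-fold lower, and Lgals3bp and Lgals8 at -0.80 and -0.66 log2. Relatives of Arhgdib, Coro1a and Lcp1 formed a list of 10 matched genes that includes Lcp1 itself. Of 7 on both arrays, Arhgdig (4.81-fold) and Lcp1 were lower and 0 higher, Coro1c differed by -0.68 log2 and Pls3 by -0.57, and Coro6 was in transgenic only. Of 6 matched osteoclast genes, 4 were above background on both arrays, with the phosphatase Acp5 2.06-fold higher, Ctsk at 0.54 log2, Itgb3 at 0.35 and Oscar at -0.17.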
